A study of Mus musculus with 6 samples.

Results

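Solute carriers are the large superfamily of membrane proteins that move nutrients, ions, metals, vitamins and metabolites across the plasma membrane, the mitochondrial inner membrane, the Golgi and the lysosome. The genes described here are the protein-coding genes of the GENCODE M21 annotation whose symbol starts with Slc and a digit and whose mean normalized count over the 6 libraries was at least 10. A normalized count is a gene's read count after the authors' scaling for library depth. Of 371 protein-coding genes with such a symbol, 9 were set aside by the rule (Slc2a1, Slc2a3, Slc4a1, Slc7a2, Slc11a1, Slc16a1, Slc16a3, Slc40a1 and Slc43a3), 210 of the other 362 fell below the limit and 152 remained, out of 43432 genes in the table. The 3 lowest members were Slc10a1 at 10.6, Slc18a1 at 11.0 and Slc46a1 at 11.1, and the 3 genes nearest below the limit were Slc30a1 at 9.32, Slc32a1 at 9.03 and Slc25a26 at 8.81 normalized counts. Among the 210 genes below the limit, 56 were at 0 in every library. The limit was set on the mean normalized count over both groups, so a gene could pass it through either group alone, as Slc4a7 did. Members were chosen with earlier results of these data known.

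Bulk RNA-seq was done on CD11b+ cells from spleens of Rag1 KO mice on the C57BL/6J background, 8 days after transfer of cells, with 1 mouse per library and 3 mice per group. WT iGB6 mice had received wild-type B cells of the iGB culture, transduced with a pMSCV retrovirus that carries Il6 and enhanced green fluorescent protein. IgHMOG iGBGFP mice had received IgHMOG B cells of the same culture with the empty vector. The B cells of both groups had been in culture for 48 hours before transduction. All recipients also got unmanipulated 2D2 CD4+ T cells, and the B cells of both groups had been loaded with MOG protein, the myelin antigen. B cell genotype and Il6 vector changed together, so their parts in any difference cannot be told apart. Rag1 KO hosts lack mature T and B cells of their own. Replicate 1 was female and replicates 2 and 3 were male in both groups. Libraries held 5955142 to 7564254 reads in WT iGB6 and 5196339 to 6611212 in IgHMOG iGBGFP. Itgam, which encodes CD11b, was present in every library, at 10514, 9561 and 12352 in WT iGB6, against 10606, 6538 and 6451 in IgHMOG iGBGFP. Throughout, 3 values in a row are replicates 1, 2 and 3 of a group, in normalized counts.

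Myeloid cells rely on these carriers in several ways. Amino acid exchangers and sugar carriers feed growth, zinc and copper carriers set the metal supply of the cytosol and of granules, nucleotide sugar carriers supply the Golgi for glycosylation of granule and surface proteins, mitochondrial carriers connect the matrix with the cytosol, and carriers of lysosomes export what macrophages and dendritic cells digest. The members were sorted into 15 classes by textbook substrate, of which 1 class (3 genes) holds scaffolds and neighbours that bear a carrier's name without being carriers.

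Solute carrier genes took a small share of each library. Their summed normalized counts were 36431, 35497 and 35829 in WT iGB6, against 34673, 33284 and 34447 in IgHMOG iGBGFP, with means of 35919 ± 473 in WT iGB6 and 34135 ± 745 in IgHMOG iGBGFP (SD, n = 3 per group). The sums were higher in every WT iGB6 library. The normalized counts of all genes tested also summed to more in WT iGB6, with means of 6725490 ± 671917 in WT iGB6 and 5824520 ± 734657 in IgHMOG iGBGFP. As a share of a library's normalized counts, the members held 0.516, 0.594 and 0.498% in WT iGB6, against 0.522, 0.584 and 0.663% in IgHMOG iGBGFP, and the groups overlapped. Of the 152 members, 6 had a mean of at least 1000 normalized counts, 59 lay between 100 and 1000 and 87 were below 100. Per kilobase of exon, the highest level was that of Slc25a5, the ADP/ATP carrier of the mitochondrial inner membrane, at 2178 normalized counts per kb. It was followed by Slc31a2, a low-affinity copper carrier, at 1022, by the mitochondrial carrier Slc25a45 at 636 and by Slc39a11, a zinc importer, at 376 normalized counts per kb. The scaffold gene Slc9a3r1, which is no carrier, reached 605.

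The comparison asks how the transporter genes of splenic CD11b+ cells differed between recipients of Il6-transduced wild-type B cells and recipients of IgHMOG B cells that carried the vector alone. Of the 152 members, 3 rose in WT iGB6, 4 fell and 145 did not pass (limma on log2(normalized count + 1) with sex as a term, Benjamini-Hochberg adjusted p under 0.05 over the 9923 genes tested). The 7 called members are 4.61% of the set, against 6.12% of all genes tested. The 3 rises are 1.97% of members, against 2.75% of all genes, and the 4 falls are 2.63%, against 3.37%. The shares of called members were thus near or below the background. The median log2 fold change, written WT iGB6 over IgHMOG iGBGFP throughout, was -0.06 over the members and 0.02 over all genes tested. Of the members, 69 of 152 had a log2 fold change above 0, against 51.6% of all genes tested. At an unadjusted p under 0.05 there were 40 members (26.3%), against 24.5% of all genes tested. In 11 members every WT iGB6 library lay above every IgHMOG iGBGFP library (7.24%, against 12.2% of all genes tested), and in 15 every one lay below (9.87%, against 11.4%). In bulk RNA from sorted cells, fewer cells of a type and less RNA per cell cannot be told apart.

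**Figure D1:**
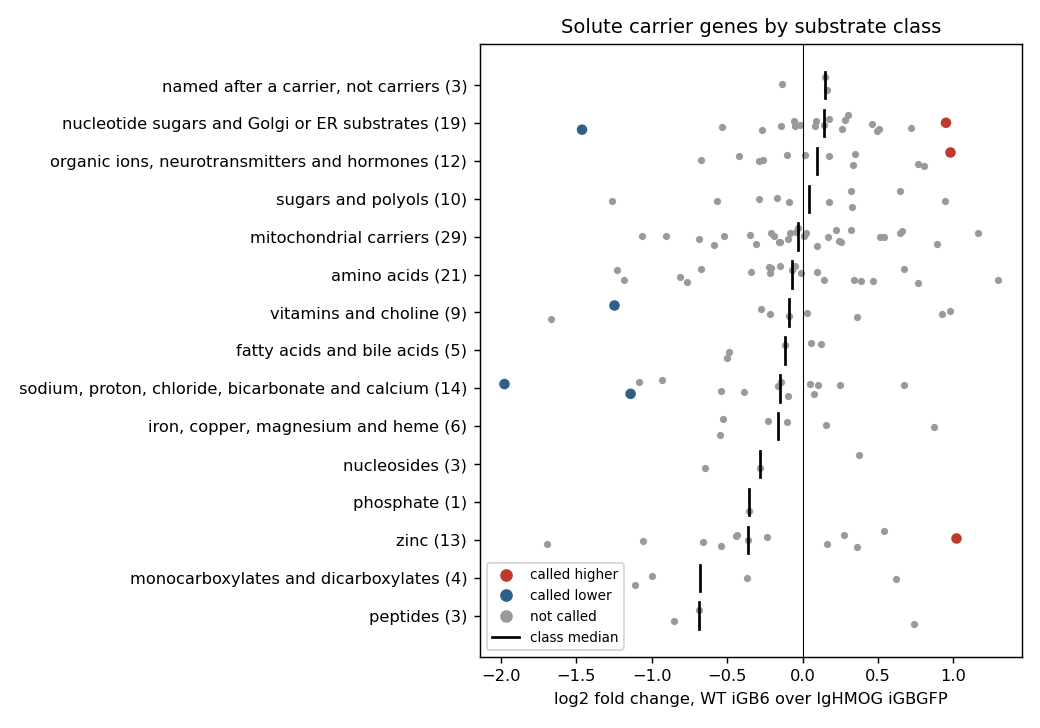
Log2 fold changes (horizontal axis, WT iGB6 over IgHMOG iGBGFP) of the 152 members, 1 point per gene, by substrate class with the number of members in brackets; black bars are class medians, and coloured points are genes called by limma. The 3 rises lie in the zinc, nucleotide sugar and organic ion classes, and the 4 falls in the ion, nucleotide sugar and vitamin classes.

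The called members came from 5 substrate classes. The rises were Slc39a11, Slc17a9 and Slc35b4, and the falls were Slc4a7, Slc35e4, Slc46a3 and Slc26a11. The groups did not overlap for 5 of these 7, while Slc17a9 and Slc35e4 overlapped by 1 library. Over all genes tested, 12.2% lay higher and 11.4% lower without overlap. The 7 were picked by the same difference, so the lack of overlap adds no support. The choice of model matters for all 7: without the sex term limma called none of the 152 members and 0.101% of all genes, with 30 members at an unadjusted p under 0.05, against 20.3% of all genes, while edgeR and DESeq2 with the sex term called 7 and 14, against 6.11% of all genes called by edgeR and 9.58% by DESeq2. Leaving out IgHMOG iGBGFP replicate 2 or replicate 3 also left 0 members called in limma. These fits called few genes of any kind, 0.0403% of all genes without replicate 2 and 0.262% without replicate 3. At an unadjusted p under 0.05 they held 27 members, against 16.7% of all genes, without replicate 2, and 26 members, against 21.1%, without replicate 3. Leaving out WT iGB6 replicate 1 left 1 member called, against 1.36% of all genes, and leaving out IgHMOG iGBGFP replicate 1 left 1, against 1.29%. Leaving out WT iGB6 replicate 3 left 3 of the 7 among 6 members called, against 6.59% of all genes. In the authors' deposited table all 7 had an adjusted p under 0.05, among 12 of the 152 members.

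**Figure D2:**
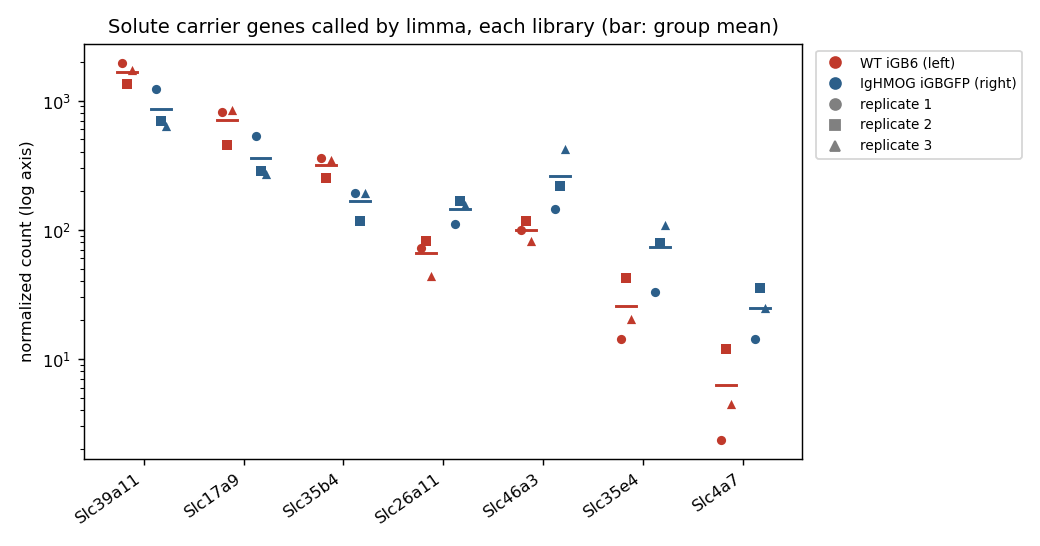
Normalized counts (log axis) of the 7 called members in each library, with WT iGB6 on the left of each pair, 1 symbol per replicate and a bar at the group mean. Slc39a11 is the most abundant, at 638 to 1960.0 normalized counts, and Slc4a7 the least, at 2.37 to 35.4.

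Among 13 zinc carriers 1 rose and 12 did not pass (6.12% of all genes tested were called in either direction). By limma 3 of the 13 had an unadjusted p under 0.05, against 24.5% of all genes tested. Slc39a11, a ZIP family importer that brings zinc into the cytosol, lies on GRCm38 chromosome 11, 113244853 to 113650079. Its normalized counts were 1960.0, 1347 and 1709.7 in WT iGB6, against 1224, 699 and 638 in IgHMOG iGBGFP. All WT iGB6 libraries were above all IgHMOG iGBGFP libraries, with means of 1672 ± 308 in WT iGB6 and 854 ± 323 in IgHMOG iGBGFP (SD, n = 3 per group). It rose by a log2 fold change of 1.02, SE 0.18, adjusted p = 0.0174, the smallest p of any member, and it was the only member still called with males alone (adjusted p = 0.0477). Slc39a4, the ZIP importer best known from the intestine, had the lowest log2 fold change of the class, with 43.9, 82.9 and 10.1 normalized counts in WT iGB6 and 94.1, 147 and 99.96 in IgHMOG iGBGFP. Its groups did not overlap, WT iGB6 replicate 3 was far below its group, and it did not pass (-1.70, SE 0.60, adjusted p = 0.117). Slc30a7, which loads zinc into the Golgi, was at 445, 439.7 and 467 in WT iGB6, against 328, 341 and 387 in IgHMOG iGBGFP, without overlap and without passing (0.36, SE 0.17, adjusted p = 0.22). For Slc30a7, 16.0% of the exon length is shared with other annotated genes, which makes its count uncertain. Slc39a10 was at -1.06 (SE 0.46) and Slc39a9 at 0.16 (SE 0.21) on the log2 scale. The class median was -0.36, but the summed counts of the class were 3103, 2471 and 2817 in WT iGB6, against 2307, 1773 and 1804 in IgHMOG iGBGFP. The sums were higher in every WT iGB6 library, also as a share of the library's normalized counts (0.0439, 0.0414 and 0.0391% in WT iGB6, against 0.0347, 0.0311 and 0.0347% in IgHMOG iGBGFP). Slc39a11 was the most abundant zinc carrier in each library and held a large part of each sum. Of the 13 carriers, 8 had a log2 fold change below 0. The class sum therefore says little about the other 12 carriers.

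Carriers of nucleotide sugars and other Golgi or ER substrates held 1 rise and 1 fall among 19 members (6.12% of all genes tested were called). By limma 4 of the 19 had an unadjusted p under 0.05, against 24.5% of all genes tested. Slc35b4 carries UDP-xylose and UDP-N-acetylglucosamine into the Golgi and lies on GRCm38 chromosome 6, 34153380 to 34177111. It had 359, 253 and 345 normalized counts in WT iGB6 and 191, 116 and 193 in IgHMOG iGBGFP. It rose without overlap of the groups (0.95, SE 0.23, adjusted p = 0.0424), and 10.01% of its exon length is shared with the annotated gene Gm13856. Slc35e4, a family member without a certain substrate, lies on GRCm38 chromosome 11, 3907021 to 3914664. Its normalized counts were 14.2, 42.6 and 20.2 in WT iGB6, against 32.7, 78.5 and 109 in IgHMOG iGBGFP. It fell (-1.46, SE 0.34, adjusted p = 0.038) although WT iGB6 replicate 2 was above IgHMOG iGBGFP replicate 1. Within each sex it was lower in WT iGB6: the female difference was -1.15 and the male difference -1.62 on the log2 scale. Slc35a4, an abundant member of uncertain substrate, was at 688, 639 and 705 in WT iGB6, against 496, 463 and 516 in IgHMOG iGBGFP, without overlap and without passing (0.46, SE 0.16, adjusted p = 0.115). Slc35b2, which carries the sulfate donor PAPS into the Golgi, was at 0.50 (SE 0.19, adjusted p = 0.145). The most abundant member, Slc35c2, linked to fucosylation, was at 1116, 970.1 and 914 in WT iGB6, against 942, 852 and 689.7 in IgHMOG iGBGFP, with overlapping groups (0.28, SE 0.16, adjusted p = 0.333). The next, Slc35a5, hardly differed (-0.02, SE 0.17). In all, 12 of the 19 had a log2 fold change above 0, with a median of 0.14. The summed counts were 5412, 5242 and 5549.9 in WT iGB6, against 4931, 4404 and 4669 in IgHMOG iGBGFP, higher in every WT iGB6 library. As a share of a library's normalized counts the class held 0.0766, 0.0878 and 0.0771% in WT iGB6, against 0.0743, 0.0772 and 0.0899% in IgHMOG iGBGFP, and the groups overlapped.

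Promoters of 4 called members, from 250 bases before to 50 bases after the RefSeq start site in GRCm38.p6, are shown to set the sequence at the start of 2 genes that rose (Slc39a11 and Slc35b4) beside that of 2 genes that fell (Slc46a3 and Slc35e4). They were chosen where the RefSeq start lay within 500 bases of the GENCODE gene start. Capitals mark matches on either strand to 4 motifs. The E-box was searched as CACGTG. The CCAAT box was searched by those letters. The GC box was searched as GGGCGG. The TATA box was searched as TATAAA. No matches overlap in the sequences shown.
Slc39a11 promoter (chr11:113650043-113650342, minus strand): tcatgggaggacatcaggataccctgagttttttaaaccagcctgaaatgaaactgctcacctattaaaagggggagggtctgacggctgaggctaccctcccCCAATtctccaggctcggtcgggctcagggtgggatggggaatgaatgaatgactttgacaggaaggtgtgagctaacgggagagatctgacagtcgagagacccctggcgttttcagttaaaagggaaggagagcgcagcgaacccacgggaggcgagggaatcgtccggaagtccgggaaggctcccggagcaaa
Slc35b4 promoter (chr6:34177005-34177304, minus strand): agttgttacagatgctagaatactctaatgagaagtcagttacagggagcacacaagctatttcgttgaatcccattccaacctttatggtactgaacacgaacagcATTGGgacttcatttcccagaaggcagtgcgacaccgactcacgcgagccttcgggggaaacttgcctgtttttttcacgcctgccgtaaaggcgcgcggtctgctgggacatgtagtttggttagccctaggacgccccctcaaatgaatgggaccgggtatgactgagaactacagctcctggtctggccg
Slc46a3 promoter (chr5:147894766-147895065, minus strand): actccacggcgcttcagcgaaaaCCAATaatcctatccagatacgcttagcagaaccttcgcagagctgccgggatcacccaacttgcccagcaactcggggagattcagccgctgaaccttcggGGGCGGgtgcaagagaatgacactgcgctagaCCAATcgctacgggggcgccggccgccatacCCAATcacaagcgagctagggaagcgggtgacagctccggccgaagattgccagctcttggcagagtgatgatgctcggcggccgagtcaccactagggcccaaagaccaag
Slc35e4 promoter (chr11:3914615-3914914, minus strand): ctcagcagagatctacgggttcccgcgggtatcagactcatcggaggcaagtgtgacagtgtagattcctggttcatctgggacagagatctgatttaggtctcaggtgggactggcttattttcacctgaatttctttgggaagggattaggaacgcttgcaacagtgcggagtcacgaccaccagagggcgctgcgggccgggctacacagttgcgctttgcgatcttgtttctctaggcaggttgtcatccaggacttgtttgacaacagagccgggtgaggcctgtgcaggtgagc
Slc39a11 and Slc35b4 each held 1 CCAAT match, which for Slc35b4 is on the opposite strand (ATTGG), and no match to the other motifs. The Slc46a3 promoter held 3 CCAAT matches and 1 GGGCGG match, and the Slc35e4 promoter held none of the 4 motifs. Among all 32851 promoters of the same length, 37.4% hold CCAAT, 35.7% GGGCGG, 13.6% TATAAA and 7.15% CACGTG. Among the 118 members with an entry, 1 promoter per gene, the shares were 38.1, 71.2, 6.78 and 15.3% in the same order, against 39.4, 64.4, 6.86 and 10.7% of 7774 genes tested. A match is a description of the letters in this window and no binding site.

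Slc17a9, the vesicular nucleotide carrier that loads ATP into secretory vesicles and lysosomes, was the 1 called gene among 12 carriers of organic ions, neurotransmitters and hormones. By limma 3 of the 12 had an unadjusted p under 0.05. Over all genes tested 6.12% were called and 24.5% had such a p. Slc17a9 lies on GRCm38 chromosome 2, 180725263 to 180742280 and had 821, 454 and 844 normalized counts in WT iGB6 and 533, 283 and 269.9 in IgHMOG iGBGFP. It rose (0.98, SE 0.24, adjusted p = 0.0425), and the groups overlapped, with WT iGB6 replicate 2 below the female IgHMOG iGBGFP library. Slc22a4, which takes up ergothioneine, was at 94.9, 82.1 and 79.9 in WT iGB6, against 57.3, 48.3 and 41.0 in IgHMOG iGBGFP, without overlap, and missed the threshold (0.81, SE 0.23, adjusted p = 0.0673). The betaine and GABA carrier Slc6a12 was at 0.76 (SE 0.28, adjusted p = 0.128), highest in WT iGB6 replicate 1. The taurine carrier Slc6a6, the most abundant of the class, was at 677, 788 and 754 in WT iGB6, against 904, 876 and 872 in IgHMOG iGBGFP. Every WT iGB6 library of Slc6a6 was below every IgHMOG iGBGFP library, but the difference was small and did not pass (-0.26, SE 0.16, adjusted p = 0.352). Slc18a2, the vesicular monoamine carrier that mast cells and basophils use for histamine, was at 62.8, 51.3 and 93.4 in WT iGB6, against 88.0, 83.7 and 99.96 in IgHMOG iGBGFP (-0.42, SE 0.27, adjusted p = 0.372). Basophil and mast cell markers summed to 464 to 1691 in WT iGB6 and 1838 to 7470.3 in IgHMOG iGBGFP, with 5 of 7 called lower, and the part of these cells in Slc18a2 was not tested.

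Carriers of sodium, protons, chloride, bicarbonate and calcium held 2 falls among 14 members and no rise. Over all genes tested 3.37% were called lower and 2.75% higher. By limma 4 of the 14 had an unadjusted p under 0.05, against 24.5% of all genes tested. Slc4a7, a sodium bicarbonate cotransporter known in human macrophages for its part in phagosome acidification, lies on GRCm38 chromosome 14, 14702279 to 14799940. It had 2.37, 11.8 and 4.50 normalized counts in WT iGB6 and 14.3, 35.4 and 25.0 in IgHMOG iGBGFP, the largest fall of any member (-1.98, SE 0.46, adjusted p = 0.0383). The groups did not overlap, but the gene is near the limit of detection, where 3 reads are worth 2.37 to 3.56 normalized counts. Its values rest on 2, 15 and 4 reads in WT iGB6 and 14, 41 and 25 in IgHMOG iGBGFP. Slc4a7 met the limit for members through IgHMOG iGBGFP alone, with means of 6.24 in WT iGB6 and 24.9 in IgHMOG iGBGFP. A gene that passes in that way is lower in WT iGB6 by construction, so its rank as the largest fall carries little weight. With no filter on low values limma also called it lower. Slc26a11, a sulfate and anion carrier of lysosomes and the plasma membrane, lies on GRCm38 chromosome 11, 119355557 to 119381079 and was at 72.3, 82.1 and 43.9 in WT iGB6, against 111, 166 and 155 in IgHMOG iGBGFP. It fell without overlap (-1.14, SE 0.29, adjusted p = 0.0454). Slc9a9, the sodium-proton exchanger of late endosomes, was at 61.7, 158 and 73.1 in WT iGB6, against 149, 195 and 236 in IgHMOG iGBGFP. WT iGB6 replicate 2 reached into the IgHMOG iGBGFP range, and limma gave -1.08, SE 0.28, adjusted p = 0.0524, just outside the threshold. Slc12a9, of the cation-chloride cotransporter family, had 64.0, 173 and 94.5 normalized counts in WT iGB6 and 158, 235 and 199 in IgHMOG iGBGFP and showed the same overlap (-0.93, SE 0.26, adjusted p = 0.0625). Both passed with DESeq2, with adjusted p = 0.019 for Slc9a9 and 0.0363 for Slc12a9. The most abundant member, Slc8b1, the mitochondrial sodium-calcium exchanger, was at 0.07, SE 0.20 on the log2 scale and did not pass.

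Of 9 carriers of vitamins and choline, 3 had an unadjusted p under 0.05 by limma, against 24.5% of all genes tested. Only Slc46a3 was called, and it fell (3.37% of all genes tested were called lower). It is a proton-coupled carrier of the lysosome, related to the folate carrier, and lies on GRCm38 chromosome 5, 147878437 to 147894815; its promoter, shown above, is the most GC-rich of the 4 at 60.0%. Its normalized counts were 99.6, 118 and 82.1 in WT iGB6, against 144, 216 and 424 in IgHMOG iGBGFP. Groups did not overlap (-1.25, SE 0.32, adjusted p = 0.0454), and IgHMOG iGBGFP replicate 3 was well above the other libraries. Slc44a1, a choline carrier, was at 29.6, 56.8 and 12.4 in WT iGB6, against 63.4, 144 and 80.0 in IgHMOG iGBGFP, also without overlap, with a larger but more variable difference that did not pass (-1.67, SE 0.50, adjusted p = 0.0731). Slc52a3, which takes up riboflavin, was at 39.1, 53.7 and 20.2 in WT iGB6, against 18.4, 23.3 and 12.0 in IgHMOG iGBGFP and Slc19a1, the reduced folate carrier, at 26.1, 15.0 and 20.2 in WT iGB6, against 3.07, 15.5 and 19.0 in IgHMOG iGBGFP. Both were higher in WT iGB6 on average without passing (log2 fold change 0.98, SE 0.42, adjusted p = 0.189 for Slc52a3 and 0.93, SE 0.55, adjusted p = 0.335 for Slc19a1). The Slc19a1 difference rests on IgHMOG iGBGFP replicate 1, which holds only 3 reads. On the log2 scale it was 2.73 in females and 0.02 in males. Slc44a2, the most abundant of the class and a choline carrier of neutrophils, differed little (-0.27, SE 0.19).

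Metal carriers other than those of zinc had no called member among 6, with 2 at an unadjusted p under 0.05 by limma (24.5% over all genes tested), and edgeR called 0 and DESeq2 1. Slc31a2, the copper carrier of late endosomes and lysosomes, was at 2678, 1853 and 3497 in WT iGB6, against 2118, 1076 and 1239 in IgHMOG iGBGFP. All WT iGB6 libraries were above the male IgHMOG iGBGFP libraries, but the female IgHMOG iGBGFP library lay inside the WT iGB6 range (0.87, SE 0.26, adjusted p = 0.072). DESeq2 called Slc31a2 higher (adjusted p = 0.0177), as did the authors' deposited table (adjusted p = 0.0146). Slc31a1, the high-affinity copper importer of the plasma membrane, was at 0.16, SE 0.20 on the log2 scale, with overlapping groups. Slc41a3, a magnesium carrier, was at 143, 114 and 120.4 in WT iGB6, against 194, 166 and 192 in IgHMOG iGBGFP, without overlap and without passing (-0.54, SE 0.19, adjusted p = 0.117). The ferrous iron carrier Slc11a2 (-0.53, SE 0.35) and the heme carrier of lysosomes Slc48a1 (-0.10, SE 0.25) overlapped between groups. The summed counts of the class also overlapped. As a share of a library's normalized counts it held 0.0506, 0.0467 and 0.0605% in WT iGB6, against 0.0446, 0.0338 and 0.0452% in IgHMOG iGBGFP. The share was higher in every WT iGB6 library, with Slc31a2 as the most abundant member. Slc31a2 had a mean of 2676 beside a mean class sum of 3572 in WT iGB6, and 1478 beside 2412 in IgHMOG iGBGFP. Of the 6 carriers, 4 had a log2 fold change below 0, and the class median was -0.16. The class share therefore says little about the carriers other than Slc31a2.

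None of 10 sugar and polyol carriers passed, with 2 at an unadjusted p under 0.05 by limma (24.5% over all genes tested), 0 called by edgeR and 1 by DESeq2. Slc2a6, a hexose carrier family member of lysosomes in macrophages, had 372, 793 and 225 normalized counts in WT iGB6 and 706, 1187 and 1099 in IgHMOG iGBGFP. Its WT iGB6 libraries spread widely, and replicate 2 lay within the IgHMOG iGBGFP range and the other replicates below it (-1.26, SE 0.37, adjusted p = 0.0709). Without WT iGB6 replicate 2 the value was -1.73, with a limma adjusted p = 9.4e-05. With each library left out in turn, the Slc2a6 value ran from -1.73 to -0.695. In limma Slc2a6 did not pass with males alone (adjusted p = 0.121) or without the sex term (adjusted p = 0.154). With all libraries DESeq2 called it (adjusted p = 0.0186). Slc2a9, the urate carrier of the same family, went the other way, at 75.9, 45.8 and 49.5 in WT iGB6, against 33.8, 25.0 and 27.0 in IgHMOG iGBGFP. Its groups did not overlap and it missed the threshold (0.95, SE 0.27, adjusted p = 0.0626). Slc37a2, a sugar phosphate exchanger of the ER in macrophages, was at 71.1, 98.7 and 55.1 in WT iGB6, against 108, 113 and 104 in IgHMOG iGBGFP, below IgHMOG iGBGFP in every WT iGB6 library (-0.57, SE 0.26, adjusted p = 0.212). The other members of that family, Slc37a1, Slc37a3 and Slc37a4, were at 0.32, -0.09 and 0.17 on the log2 scale, and none of them passed.

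Among the 21 amino acid carriers limma called 0, with 6 at an unadjusted p under 0.05, near the 24.5% over all genes tested, and edgeR called 0 and DESeq2 1. The light chains of the heteromeric exchangers, which pair with the heavy chain Slc3a2, lay on both sides of 0, and none passed. Slc7a8, which exchanges large neutral amino acids, was at 22.5, 76.6 and 28.1 in WT iGB6, against 85.9, 82.8 and 84.0 in IgHMOG iGBGFP. The groups did not overlap, but WT iGB6 replicate 2 was near the IgHMOG iGBGFP libraries (-1.18, SE 0.38, adjusted p = 0.0933). Slc7a11, which imports cystine in exchange for glutamate and so feeds glutathione synthesis, had 230.0, 213 and 142 normalized counts in WT iGB6 and 358, 465 and 229 in IgHMOG iGBGFP, with WT iGB6 replicate 1 at the level of IgHMOG iGBGFP replicate 3 (-0.82, SE 0.28, adjusted p = 0.106). DESeq2 called Slc7a11 lower (adjusted p = 0.0415). Slc7a7, which releases cationic amino acids, was at 262, 263 and 241 in WT iGB6, against 209, 186 and 209 in IgHMOG iGBGFP, higher in every WT iGB6 library by a small margin that did not pass (0.34, SE 0.18, adjusted p = 0.271). The heavy chain Slc3a2 itself was at 537, 399 and 474 in WT iGB6, against 548, 464 and 441 in IgHMOG iGBGFP, with overlapping groups (-0.05, SE 0.17). Slc43a2, a facilitative carrier of large neutral amino acids, was at -0.68, SE 0.24, adjusted p = 0.123. The sodium-coupled members, 9 in all, had a median of 0.10 and ran from -0.22 for Slc38a1 to 1.29 for the glutamate carrier Slc1a3 (adjusted p = 0.192). The most abundant of the class, Slc38a10, was at 754, 701 and 395 in WT iGB6, against 649, 520.0 and 462 in IgHMOG iGBGFP, and its groups overlapped (0.14, SE 0.22). The glutamine carrier Slc38a2 was at -0.21, SE 0.17 and the lysosomal arginine sensor Slc38a9 at -0.01, SE 0.23. The class sum was 2835, 3132 and 2475 in WT iGB6, against 3017, 3131 and 3105 in IgHMOG iGBGFP.

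No peptide or nucleoside carrier passed. Of the 3 peptide carriers, 2 had an unadjusted p under 0.05, edgeR called 0 and DESeq2 1. Of the 3 nucleoside carriers, 1 had an unadjusted p under 0.05 and edgeR and DESeq2 called 0. Over all genes tested 24.5% had an unadjusted p under 0.05. Slc15a3, a histidine and oligopeptide carrier of lysosomes, had 132, 148 and 95.6 normalized counts in WT iGB6 and 278, 252 and 157 in IgHMOG iGBGFP. Its groups did not overlap (-0.85, SE 0.25, adjusted p = 0.073), and 28.1% of its exon length is shared with Tmem132a, so reads of the 2 genes cannot be fully told apart. Slc15a4, its relative that supports endosomal Toll-like receptor signalling, was at 34.4, 60.8 and 50.6 in WT iGB6, against 47.1, 108 and 89.0 in IgHMOG iGBGFP (-0.69, SE 0.25, adjusted p = 0.123). Slc15a2, the peptide carrier of the plasma membrane, was at 63.9 in WT iGB6 replicate 2 and between 8.30 and 20.2 in every other library. The summed counts of the 3 peptide carriers overlapped between groups. Their share of a library's normalized counts was lower in every WT iGB6 library. It was 0.00247, 0.00456 and 0.00231% in WT iGB6, against 0.00510, 0.00649 and 0.00504% in IgHMOG iGBGFP. Slc29a3, the lysosomal nucleoside carrier of macrophages, was at 167, 236 and 179 in WT iGB6, against 223, 317 and 388 in IgHMOG iGBGFP, and only WT iGB6 replicate 2 reached the lowest IgHMOG iGBGFP library (-0.65, SE 0.20, adjusted p = 0.0816). The concentrative carrier Slc28a2, the most abundant nucleoside carrier here, was at 0.38 (SE 0.17, adjusted p = 0.215), and the equilibrative carrier of the plasma membrane, Slc29a1, at -0.28, SE 0.24.

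The mitochondrial carriers, family 25, made up 29 members and the largest sum, at 10404, 10165 and 10364 in WT iGB6, against 9416, 10349 and 10549 in IgHMOG iGBGFP. None passed in limma, edgeR or DESeq2, with 8 at an unadjusted p under 0.05 in limma (24.5% over all genes tested), 4 in each direction, and their median was -0.03. Slc25a12, the aspartate and glutamate carrier of the malate-aspartate shuttle, was at 651, 648 and 580.4 in WT iGB6, against 463, 385 and 446 in IgHMOG iGBGFP, higher in every WT iGB6 library (0.54, SE 0.17, adjusted p = 0.0799). Its close relative Slc25a13 was at 0.22, SE 0.29. Slc25a29, a carrier of basic amino acids, had 90.1, 23.7 and 58.5 normalized counts in WT iGB6 and 38.9, 19.0 and 14.0 in IgHMOG iGBGFP, and replicate 1 was the highest library in both groups (1.16, SE 0.37, adjusted p = 0.0871). Slc25a46, an outer membrane protein of mitochondrial dynamics rather than a known carrier, was at 17.8, 15.8 and 20.2 in WT iGB6, against 48.1, 40.5 and 29.0 in IgHMOG iGBGFP, lower in every WT iGB6 library (-1.06, SE 0.32, adjusted p = 0.0773). Slc25a30 was also lower in every WT iGB6 library, at 19.0, 29.2 and 17.997 in WT iGB6, against 35.8, 47.4 and 41.0 in IgHMOG iGBGFP (-0.90, SE 0.31, adjusted p = 0.112). The ADP/ATP carriers were at -0.15, SE 0.19 for Slc25a5 and -0.52, SE 0.22 for Slc25a4, the isoform of heart and muscle (adjusted p = 0.181). Slc25a5 was at 3273, 3797 and 3030.3 in WT iGB6, against 2798, 4372 and 4240.4 in IgHMOG iGBGFP, and the groups overlapped. The abundant Slc25a45 stayed between 1594 and 1818 normalized counts in all libraries (0.10, SE 0.16). The iron carriers Slc25a37 and Slc25a28 were at 0.17 (SE 0.27) and -0.35 (SE 0.41), and the carnitine carrier Slc25a20 at -0.09, SE 0.21.

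**Figure D3:**
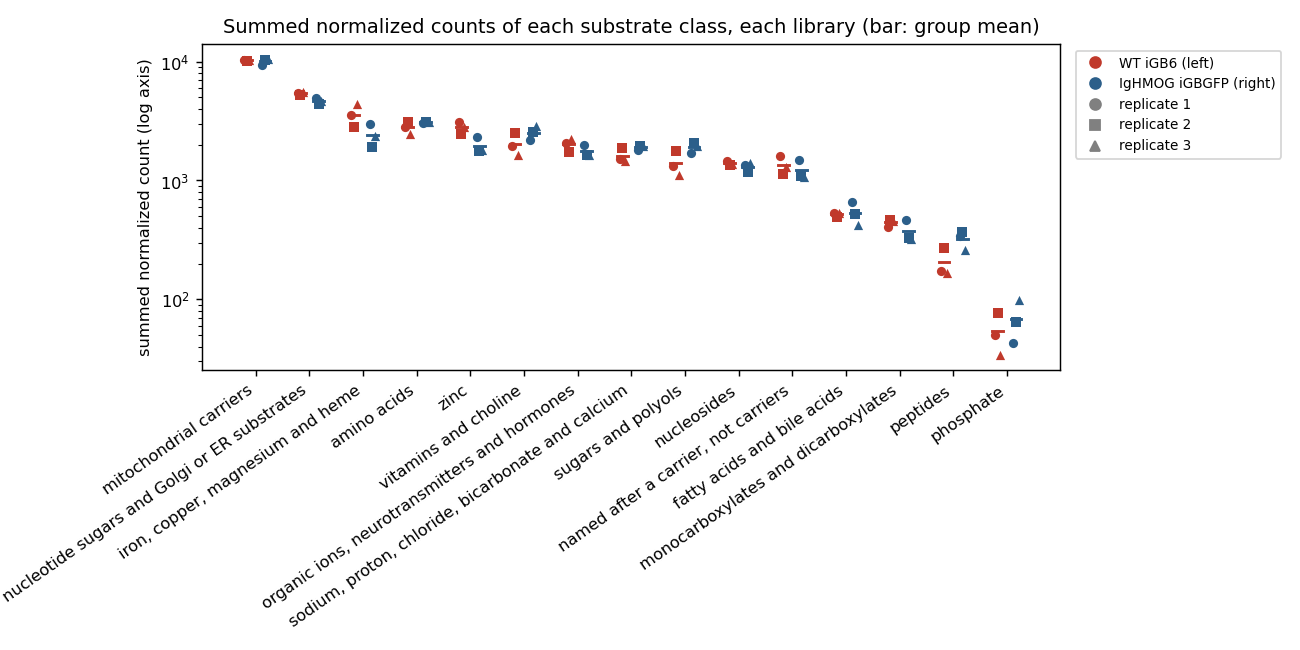
Summed normalized counts (log axis) of the members of each substrate class in each library, with WT iGB6 on the left of each pair, 1 symbol per replicate and a bar at the group mean. Mitochondrial carriers hold the largest sum. Zinc and nucleotide sugar carriers lie higher in every WT iGB6 library, and Slc39a11 holds a large part of the zinc sum. As a share of the library's normalized counts (not drawn), nucleotide sugar carriers overlap between groups. By share, zinc carriers and those of iron, copper, magnesium and heme lie higher in every WT iGB6 library, and peptide carriers lower. Slc31a2 holds a large part of the sum of the iron, copper, magnesium and heme carriers.

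The remaining classes were small and held no call in limma, edgeR or DESeq2. Of 4 monocarboxylate carriers, 2 had an unadjusted p under 0.05, against 24.5% of all genes tested. Slc16a14, an orphan of this family, was at 23.7, 30.0 and 13.5 in WT iGB6, against 55.2, 46.6 and 41.0 in IgHMOG iGBGFP, without overlap (-1.11, SE 0.35, adjusted p = 0.0816). Slc16a6, a carrier of ketone bodies and taurine, was at 318, 394 and 394 in WT iGB6, against 349.8, 219.9 and 176 in IgHMOG iGBGFP, higher than the female IgHMOG iGBGFP library in only 2 of 3 WT iGB6 libraries (0.62, SE 0.24, adjusted p = 0.154), and 23.5% of its exon length is shared with other genes. The other members were Slc16a13 at -0.99, SE 0.58 and Slc16a7 at -0.37, SE 0.29. Of 5 fatty acid and bile acid carriers, none had an unadjusted p under 0.05. Slc27a4, a fatty acid transport protein, was at 275, 185 and 270.0 in WT iGB6, against 333, 256 and 124 in IgHMOG iGBGFP (0.12, SE 0.29), and Slc27a1, its relative, was lower in every WT iGB6 library at a low level of 10.7 to 17.99 normalized counts (-0.50, SE 0.36, adjusted p = 0.435). The bile acid family members Slc10a3 and Slc10a7 were at -0.12 and 0.05, and Slc10a1, the lowest member of all, was at -0.49. The single phosphate carrier, Slc20a1, was at -0.35, SE 0.36 with overlapping groups. Among the genes that carry a carrier's name only, the scaffold Slc9a3r1 was at 1496, 1023 and 1152 in WT iGB6, against 1360.5, 976 and 976 in IgHMOG iGBGFP (0.15, SE 0.16), Slc4a1ap at 0.16, SE 0.22 and Slc7a6os at -0.14, SE 0.43.

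Several of the lower members above belong to the membranes of lysosomes and late endosomes. A list of 15 such carriers was drawn up after the values had been seen, so it carries no test and its counts support nothing by themselves. Of these 15, Slc26a11 and Slc46a3 fell, Slc17a9 rose and 12 did not pass (6.12% of all genes tested were called). Their median log2 fold change was -0.65, beside -0.05 over the other 137 members and 0.02 over all genes tested. As the genes were picked with their values known, that contrast shows nothing about lysosomal carriers in general. Slc36a3 (-1.23) and Slc36a4 (-0.22), relatives of the listed Slc36a1, were left out. Slc2a6, Slc9a9, Slc12a9, Slc15a3, Slc15a4 and Slc29a3 lay between -1.26 and -0.65 without passing. Slc48a1, Slc36a1, Slc38a9, Slc38a7 and the sialic acid carrier Slc17a5 lay between -0.10 and 0.17, and Slc31a2 was at 0.87. The list was therefore not uniform. Its summed counts were 4975, 4597 and 5651 in WT iGB6, against 4910, 4516 and 4760.2 in IgHMOG iGBGFP, in which Slc31a2 is the most abundant gene.

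**Figure D4:**
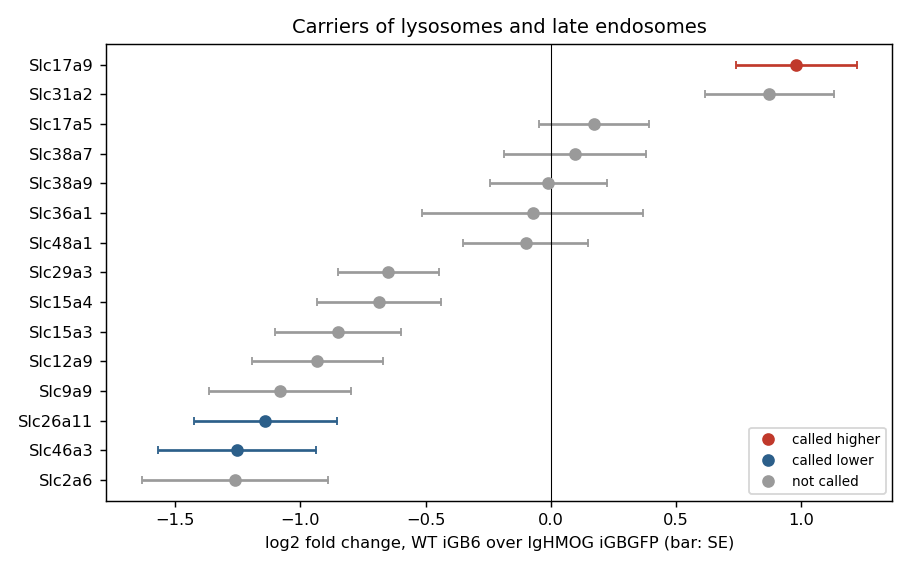
Log2 fold changes with SE (horizontal axis, WT iGB6 over IgHMOG iGBGFP) of 15 carriers of lysosomes and late endosomes, ordered by value. Slc17a9 at 0.98 is called higher, Slc26a11 at -1.14 and Slc46a3 at -1.25 are called lower, and grey points did not pass. The list was drawn up after the values had been seen.

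Several lists of other genes also differed between the groups, while the erythroid, red pulp macrophage, NK cell and lymphocyte lists held few calls or none. Dendritic cell markers summed to 64.0 to 289.7 in WT iGB6 and 458 to 1420.5 in IgHMOG iGBGFP, with 4 of 5 tested markers lower, and MHC class II genes to 5292 to 13126 in WT iGB6 and 11071 to 43694 in IgHMOG iGBGFP, with 4 of 5 lower. Neutrophil precursor markers summed to 22341 to 36765 in WT iGB6 and 5518 to 13135 in IgHMOG iGBGFP, with 8 of 8 higher, and cell division genes to 3729 to 7006 in WT iGB6 and 1877 to 2866 in IgHMOG iGBGFP, with 6 of 6 higher. Genes listed for isolation stress (Fos, Junb, Atf3, Egr1, Hspa1a and Dusp1) summed to 3875 to 11414 in WT iGB6 and 15668 to 25824 in IgHMOG iGBGFP, with 5 of 6 lower. Whether isolation of the cells had a part in their levels was not tested. Erythroid markers (0 of 8 tested called) summed to 2036 to 4506 in WT iGB6 and 756 to 3199 in IgHMOG iGBGFP, red pulp macrophage markers (1 of 5 higher) to 2246 to 6902 in WT iGB6 and 3523 to 4729.6 in IgHMOG iGBGFP, and NK cell markers (1 of 4 higher) to 495 to 1391 in WT iGB6 and 280.3 to 626 in IgHMOG iGBGFP. Lymphocyte markers stayed low, with 0 of 2 tested genes called in each list. T cell markers summed to 72.6 to 99.0 in WT iGB6 and 97.5 to 150.4 in IgHMOG iGBGFP. B cell markers summed to 51.7 to 89.2 in WT iGB6 and 74.7 to 129 in IgHMOG iGBGFP, and Pax5 was at 0 in all but 1 library. Cd3e was at 0 in every WT iGB6 library, against 1.02, 1.72 and 3.998 in IgHMOG iGBGFP. Trac was at 0, 0 and 1.12 in WT iGB6, against 2.05, 4.31 and 15.99 in IgHMOG iGBGFP. Most of these values lie near or below the floor of 3 reads. Cd4 was also lower in every WT iGB6 library without passing (-1.13, SE 0.43, adjusted p = 0.146). Cd3g and Cd3d overlapped between groups, and Cd3d was the most abundant T cell marker in each library. Beside Itgam, the gene of the gate marker, 4 general myeloid genes were followed, and none of the 5 was called. Their log2 fold changes differed in sign, with Itgam at 0.49, Ly6g at 0.73 and Ly6c2 at 0.18, and Csf1r at -0.92 and Csf3r at -1.12, while the sum of the 5 was 28736 to 30890.2 in WT iGB6 and 32258 to 33895 in IgHMOG iGBGFP. The part of any of these cells in the values of the solute carriers was not tested.

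WT iGB6 replicate 2 and IgHMOG iGBGFP replicate 1 lay nearest to the other group for many members. Among the 24 members that were lower in WT iGB6 at an unadjusted p under 0.05, WT iGB6 replicate 2 was the highest WT iGB6 library for 21 and IgHMOG iGBGFP replicate 1 the lowest IgHMOG iGBGFP library for 17. Among the 16 that were higher at that level, WT iGB6 replicate 2 was the lowest of its group for 10 and IgHMOG iGBGFP replicate 1 the highest of its group for 11. These members were picked by the same comparison. Over all 83 members with a log2 fold change below 0 the counts were 52 and 48. For the 69 members above 0 they were 34 and 35. Positions were not counted over all genes tested, so the pattern is not shown to be particular to solute carriers. The share of members at an unadjusted p under 0.05 was 15.8% lower and 10.5% higher, against 12.3% in each direction over all genes tested. WT iGB6 replicate 2 had the highest and IgHMOG iGBGFP replicate 1 the lowest sum of its group for the dendritic cell and MHC class II lists, and WT iGB6 replicate 2 also the highest of its group for the isolation stress list. Without WT iGB6 replicate 2, limma called 21 members (13.8%, against 10.9% of all genes tested), 7 higher and 14 lower, among them all 7 above. The added calls included Slc2a6, Slc39a4 (-2.44), Slc44a1 (-2.18) and Slc7a8 (-1.69) on the lower side and Slc25a29 (1.53) on the higher side, each on the log2 scale without that library. Within males alone, 2 against 2 libraries, 1 member, Slc39a11, was called (0.658% of members, against 1.35% of all genes tested). The sex term itself was called for 0 of 152 members (lowest adjusted p = 0.190, 27 at an unadjusted p under 0.05, against 13.9% of all genes), beside 0.0605% of all genes, and sex and replicate number 1 coincide. The interaction of sex and group was called for 0 members, with 4 at an unadjusted p under 0.05, against 1.49% of all genes, and for 0 of all genes tested.

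In the authors' deposited table, 12 members had an adjusted p under 0.05, 4 higher and 8 lower, or 7.89% of the 152 against 8.18% of the 10537 genes that have an adjusted p there. Beside the 7 above, these were Slc31a2 and, on the lower side, Slc2a6 (adjusted p = 0.0205), Slc44a1 (0.0229), Slc9a9 (0.0289) and Slc15a3 (0.0461). The authors' deposited table, whose sign follows WT iGB6 over IgHMOG iGBGFP as read from its values, gives log2 fold changes of 0.96 for Slc39a11, 0.93 for Slc17a9, -1.15 for Slc46a3 and -1.22 for Slc4a7.

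**Figure D5:**
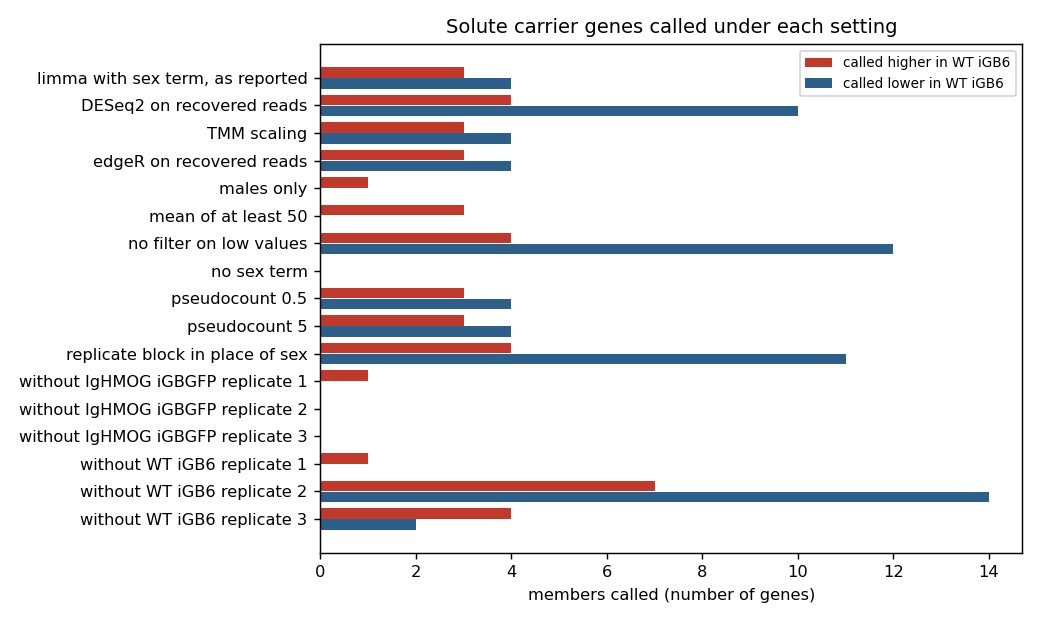
Number of solute carrier genes called higher and lower in WT iGB6 (horizontal axis) under each way of processing, 1 pair of bars per setting. The counts run from 0 without the sex term to 7 higher and 14 lower without WT iGB6 replicate 2.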

How the data were processed

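Each library has 1 column of normalized counts, here a signal: the file headers name featureCounts, and the values show that the authors divided whole reads by 1 factor per library. Every value is a whole multiple of its column's step within 0.001, and whole reads were recovered from that. Floors of 3 reads cover counting error alone. Tools listed in the submitters' processing notes are STAR 2.7.10b, cutadapt 4.4, FastQC 0.74, DESeq2 2.11.40.7 and featureCounts 2.0.3, with builds GRCm38 and mm10, and strand handling is not stated. The authors' second table has no header and holds their log2 fold changes, standard errors, Wald score, p-values and adjusted p-values, which were identified from the values.

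Symbols and 1-based coordinates came from GENCODE M21, which matched 42548 of 43432 identifiers. Differences were tested with limma 3.58.1 (R 4.3.3, eBayes with its trend option) on log2(normalized count + 1), a scale that understates the change of low genes. It covered 9923 genes with a mean of 10 or more, had terms for group and sex, was two-sided, and used Benjamini-Hochberg adjustment at 0.05. SE is limma's moderated standard error. Alternatives included edgeR 4.0.16 (quasi-likelihood) and DESeq2 1.42.0, both on recovered reads. The limma step was tested on simulated counts. Members, classes and lists were chosen with earlier results of these data known. Named genes are all called members and, per class, those with the smallest p and the most abundant; others were chosen after their values were seen. Each library is a mouse, so p-values set the difference between groups against the spread between mice. For each gene limma drew that spread partly from the other genes tested. Marker lists are described without a set test.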

Additional observations from a re-analysis of the deposited data

How the results depend on the processing

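Pseudocounts of 0.5 and 5, TMM scaling and edgeR kept 3 members higher and 4 lower, the same 7 genes, with 594, 631, 602 and 606 genes called in all, beside 607. Solute carrier genes called higher and lower numbered 4 and 10 with DESeq2 (951 genes in all), 4 and 12 with no filter (1079), 4 and 11 with the replicate block (1001), 3 and 0 with a mean of at least 50 (445), 1 and 0 with males only (134), and 0 and 0 without the sex term (10). Leaving out 1 library gave 0 to 7 members higher, 0 to 14 lower and 4 to 1083 genes called in all: none of the members without IgHMOG iGBGFP replicate 2 or 3, 1 without either replicate 1, 7 and 14 without WT iGB6 replicate 2, and 4 and 2 without WT iGB6 replicate 3. Fits without a library, or with males alone, have fewer samples by construction; the cause of the other shifts was not tested. No called member changed direction under any alternative. Slc39a11 passed in 13 of 16 alternatives (adjusted p = 0.000356 to 0.127, log2 fold change 0.87 to 1.18), Slc17a9 in 10 and Slc35b4 in 9 of 16, and Slc26a11 and Slc46a3 in 8 of 16. Slc35e4 passed in 9 and Slc4a7 in 8 of the 15 that tested them.

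The replicate numbers were not taken as pairs in the main fit. Within a replicate number, the mouse numbers in the sample titles lie close together and the sex is the same. The deviations of same-numbered libraries from their group means correlated at 0.482, 0.350 and 0.0407 for numbers 1, 2 and 3. Differently numbered libraries ran from -0.515 to 0.287, and WT iGB6 replicate 3 correlated more with IgHMOG iGBGFP replicate 1 (0.085). So few values cannot decide whether the mice were handled as pairs. The fit with a replicate block called 15 members (9.87%, against 10.1% of all genes tested), with all of the 7 among them. Depth limits the lowest members: 87 of 152 had a mean under 100 normalized counts.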

Other observations

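Some solute carriers have other symbols. Of 44 such genes listed, 43 were in the table and 30 were tested: 1 rose, 1 fell and 28 did not pass in limma, with a median log2 fold change of -0.14 and 9 at an unadjusted p under 0.05. Over all genes tested 6.12% were called and 24.5% had an unadjusted p under 0.05. Both called genes are sideroflexins. Sfxn1, a mitochondrial serine carrier that feeds one-carbon metabolism, was at 413, 358 and 315 in WT iGB6, against 221, 213 and 169.9 in IgHMOG iGBGFP. It rose without overlap (0.84, SE 0.18, adjusted p = 0.0315). Sfxn3, its relative, was at 94.9, 208 and 154 in WT iGB6, against 175, 301 and 401 in IgHMOG iGBGFP. It fell (-0.93, SE 0.21, adjusted p = 0.0339) although WT iGB6 replicate 2 was above IgHMOG iGBGFP replicate 1. Sfxn5 was at 83.0, 151 and 37.1 in WT iGB6, against 168, 314 and 211 in IgHMOG iGBGFP, lower in every WT iGB6 library, and did not pass (-1.51, SE 0.44, adjusted p = 0.067). The cholesterol exporter of lysosomes Npc1 (-0.77, SE 0.25, adjusted p = 0.0987) and the heme exporter Flvcr1 (-0.65, SE 0.23, adjusted p = 0.117) were also lower in every WT iGB6 library without passing, while the lysosomal cystine exporter Ctns was higher in every one (0.40, SE 0.19, adjusted p = 0.23). The most abundant of these genes, the uncoupling protein Ucp2, was at 7852, 7420.0 and 7531 in WT iGB6, against 9057, 8531 and 7698 in IgHMOG iGBGFP, with overlapping groups (-0.15, SE 0.18). The pyruvate carrier subunits Mpc1 and Mpc2 were at -0.14 and 0.34 on the log2 scale. Of the 2 chaperones of monocarboxylate carriers, Bsg was at 0.23, SE 0.19 and Emb at 3084, 4593 and 3452 in WT iGB6, against 4504, 5947 and 6007 in IgHMOG iGBGFP, with WT iGB6 replicate 2 just above IgHMOG iGBGFP replicate 1, and not called (-0.57, SE 0.18, adjusted p = 0.0858).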
